A study of Mus musculus with 6 samples.

Results

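Hemoglobin, the oxygen carrier of red cells, is built from alpha and beta globin chains, and Hba-a1 encodes an adult alpha chain and Hbb-b1 an adult beta chain. Their mRNAs are made in erythroblasts of the marrow and remain in reticulocytes, the youngest red cells in blood, which have lost the nucleus but still hold RNA. Globin mRNA in a tissue or in plasma is therefore commonly read as RNA of red cells, either inside cells or released from them. Hba-a1 and Hbb-b1 were followed in heart, whole blood and plasma, and were taken as all probes that carry either name in the study's list of mRNAs. That rule gave 2 probes, 1 for each gene, among the 4093 named mRNA probes held here and the 59729 probes of the array.

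Acute heart failure (HF) had been produced in male C57BL/6J mice by subcutaneous isoproterenol, which stimulates β-adrenergic receptors. The dose was 40 mg/kg/day over 1 week, and saline was given to the controls. By the array methods, RNA of 5 mice was mixed for each of the 6 groups, namely control heart, HF heart, control whole blood, HF whole blood, control plasma and HF plasma, and each mixture was hybridised to 1 single-colour array. Hearts had been rinsed in cold saline, whole blood had been drawn by removal of the eyeball, and plasma had been spun at increasing force and passed through a sterile filter before extraction. The extraction steps speak of plasma from 10 mice, and the volumes they give for whole blood do not match 5 mice either. The number of animals behind a whole blood or plasma array is therefore not settled. The model is an acute adrenergic injury, seen at a single time. With 1 array for each group there was no replicate, so every difference below is a description of single arrays without a test, p value or SD, and the number of arrays limits the precision.

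Each probe was printed on 1 spot. Its transcript, as the study's list gives it, was looked up in RefSeq on GRCm38.p6. Hba-a1 lies on the plus strand of chromosome 11 from 32283672 to 32284486, in a cluster with its near copy Hba-a2 from 32296492 to 32297310 and with the theta gene Hbq1b from 32286964 to 32287912. The transcript listed under the name Hbb-b1 is now assigned to Hbb-bt, on the minus strand of chromosome 7 from 103812524 to 103813923. Next to it lies Hbb-bs, from 103826523 to 103827928, whose probe is listed as Beta-s. Hbb-bs and Hbb-bt are the adult beta genes of the C57BL/6 haplotype. Probe sequences were not used here, and copies this alike may share a probe's signal, so the name of each adult globin probe is uncertain as to which copy it reads.

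The bases before the transcription start of the 4 adult genes show how alike the copies are, and are given 5′ to 3′ on the strand of the gene, ending with the last base before the start. Capitals mark the letters CCAAT of the box of that name, CACCC of the box bound by erythroid factors of the Krüppel type, TATAA of the TATA box, and GATAA as read by GATA factors, each also in its reverse complement. No match overlaps another. The windows are chr11:32283522-32283671 for Hba-a1, chr11:32296342-32296491 for Hba-a2, chr7:103813924-103814073 for Hbb-bt and chr7:103827929-103828078 for Hbb-bs, from RefSeq, GRCm38.p6.
Hba-a1: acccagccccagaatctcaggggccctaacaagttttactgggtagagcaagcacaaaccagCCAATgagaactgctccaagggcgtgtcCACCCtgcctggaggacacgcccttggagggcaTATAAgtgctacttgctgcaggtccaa
Hba-a2: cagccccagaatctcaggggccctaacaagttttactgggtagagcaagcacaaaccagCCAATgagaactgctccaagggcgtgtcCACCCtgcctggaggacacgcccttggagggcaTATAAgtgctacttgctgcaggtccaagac
Hbb-bt: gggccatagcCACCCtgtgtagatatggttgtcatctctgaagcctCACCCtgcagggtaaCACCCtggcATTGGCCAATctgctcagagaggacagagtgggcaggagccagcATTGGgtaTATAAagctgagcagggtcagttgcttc
Hbb-bs: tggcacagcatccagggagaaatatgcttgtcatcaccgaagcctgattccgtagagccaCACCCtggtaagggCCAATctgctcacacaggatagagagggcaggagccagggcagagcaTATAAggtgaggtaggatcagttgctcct
The alpha copies were identical at 147 of 147 bases once the starts were shifted by 3 bases. The beta copies matched at 106 of 149 bases with a shift of 1 base and no gaps. All 4 windows held a CCAAT box, a CACCC box and a TATA box. Among 32851 promoters searched over the same 150 bases, 24.5% held the first, 37.4% the second and 14.2% the third, on either strand. GATAA, found in 13.3% of them, was in none of the 4 windows. These matches are letters in a window and not shown to be sites.

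The labelled tissues were checked by marker probes. All 22 probes of cardiomyocyte genes were well above background in both hearts, but so were 21 in HF whole blood, against 5 in control whole blood. The 2 plasma arrays had 9 in control and 8 in HF. Their summed share of all signal was 0.945% in control heart, 1.17% in HF heart, 0.278% in HF whole blood and at most 0.0508% elsewhere, so HF whole blood stood below the hearts by level and not by detection. All 7 globin probes were well above background in blood, in control plasma and also in both hearts. According to the scan entries of the file headers, both hearts, HF whole blood and HF plasma were scanned together, and control whole blood and control plasma were scanned in another session. Scan and heart failure therefore cannot be told apart in whole blood or plasma. The comparison of HF with control heart, and that of plasma with whole blood of the same condition, lie within 1 scan. Probes detected on an array, meaning well above background and not an outlier spot, made up at least 24.98% and at most 47.3% of all probes. Of the 1000 brightest probes, 31.0% in control whole blood and 30.3% in control plasma were outlier spots, as were 19.1% in HF plasma, and at most 1.40% in the others. No spot of Hba-a1 or Hbb-b1 was an outlier or saturated, although the local background of Hba-a1 was marked as an outlier on both plasma arrays.

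The processed signal of Hba-a1, in scanner units after background subtraction, was 128284 in control heart and 90369 in HF heart. Whole blood of control mice gave 585181, and that of HF mice 94680. Plasma of control mice gave 403318, and that of HF mice 4650. The spot error given by the scanner software was 0.14 on the log2 scale on every array. The probe was thus brightest in control blood and plasma, at 75.9% and 55.5% of the saturation value, and dimmest by far in HF plasma.

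Hbb-b1 gave a processed signal of 85596 in control heart and 83472 in HF heart. Whole blood gave 592605 in control mice and 100415 in HF mice. The signal was 427503 in control plasma and 93.7 in HF plasma, where the spot was still 7.24 times its local background. Spot errors were 0.14 on the log2 scale, and 0.16 in HF plasma. Both probes placed the arrays in a like order, with HF plasma last.

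**Figure D1:**
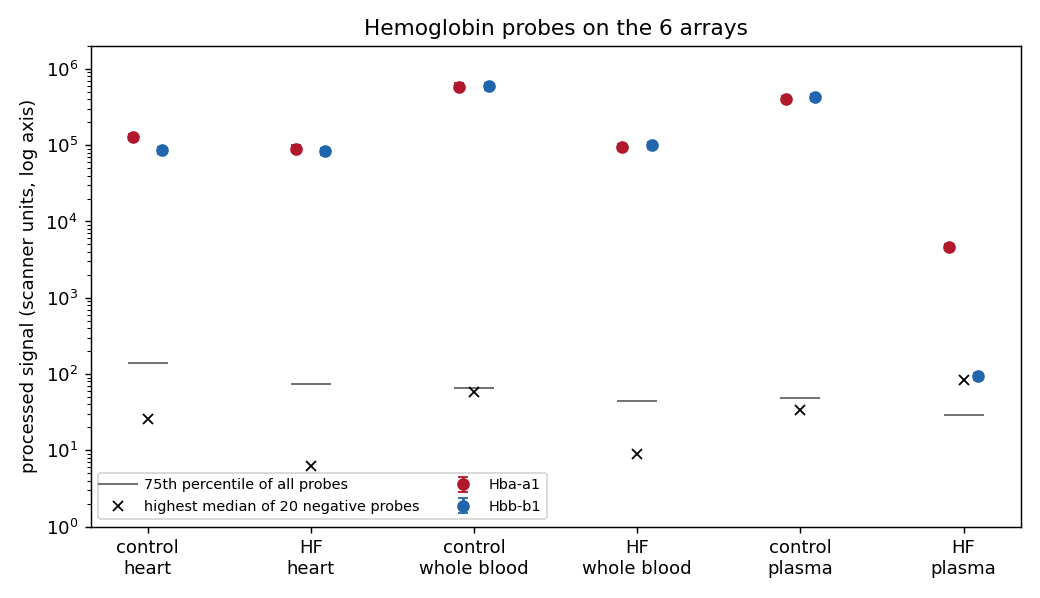
Processed signal (log axis, scanner units) of the Hba-a1 and Hbb-b1 probes on the 6 arrays, 1 spot per point with the scanner's spot error as bars. Gray lines give the 75th percentile of all probes and crosses the highest median signal among 20 negative probes. In HF plasma, Hbb-b1 lies at 93.7, next to the cross at 83.1.

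How much of the HF plasma signal of Hbb-b1 is specific can be judged against the array maker's 20 negative probes, which are printed on 1200 spots. In HF plasma 12.4% of these spots were flagged as well above background, and 27 of them were at least as bright as Hbb-b1. The highest median signal of a negative probe there was 83.1. On the other 5 arrays no negative spot reached the signal of Hbb-b1. The low end in HF plasma is thus close to the negative probes, while the signal of Hba-a1 was far above the brightest negative spot, at 322.

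Signals were placed on a common log2 scale by quantile normalization over the 6 arrays, which gives every array the same distribution of levels. Normalization made some differences of the hemoglobin probes smaller and others larger. For Hba-a1, HF minus control in whole blood was -2.63 before it and -0.23 after it. Heart minus whole blood in HF was -0.067 before it and -0.61 after it. The level of Hba-a1 came to 17.58 for control whole blood, 17.53 for control plasma, 17.35 for HF whole blood, 16.74 in HF heart, 16.70 in control heart and 13.49 in HF plasma. In that order, the steps between the first 3 arrays and between the hearts were below 1.96 times the combined spot error of 0.20. The step from HF whole blood to HF heart was 0.61, and the last step, from control heart to HF plasma, was 3.21.

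For Hbb-b1 the same scale gave 17.64 for control whole blood, 17.58 for control plasma, 17.43 for HF whole blood, 16.50 in HF heart, 15.92 in control heart and 7.70 in HF plasma. The order of the arrays was the same as for Hba-a1. Only the first 3 arrays were within 1.96 times the combined spot error of their neighbours, and the hearts differed by 0.58. Of the summed signal of all probes, both genes together took 1.57% in control whole blood, 1.49% in plasma of control mice, 1.01% in HF whole blood, 0.296% in HF heart, 0.266% in control heart and 0.0241% in HF plasma.

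In plasma, Hba-a1 and Hbb-b1 were both far lower in HF than in control. The log2 difference of Hba-a1 was -4.05, a 16.5-fold lower level, with a range of 12.5 to 21.8 from the spot errors alone. That of Hbb-b1 was -9.88, or 945-fold, with a range of 706 to 1264 from the same errors, which do not cover the closeness to the negative probes. On the signals as deposited, without normalization, Hba-a1 was 86.7-fold lower and Hbb-b1 4563-fold lower. At least 2-fold lower in HF plasma were 25.3% of the 24387 probes compared, and 32.1% were at least 2-fold higher. A probe dim on 1 array was set there to the lowest level that counts as above background, so its difference is a bound. This comparison runs across scans.

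The other globins went the same way in plasma. Hba-a2, the second adult alpha gene, had a signal of 83733 in control plasma and 80.0 in HF plasma, with a log2 difference of -8.31, with an HF signal below the highest median of the negative probes. Beta-s, the Hbb-bs probe, had 202803 and 809, a log2 difference of -5.80. Hbq1b, which encodes the theta chain, went from 72436 to a signal not above background, at least 1201-fold lower. Gm5736, now named Hbb-bh2, a beta-like gene of the same cluster, had 942 and 236, a log2 difference of -1.07, and the embryonic Hbb-bh1 was at least 5.16-fold lower. All 7 globin probes were thus at least 2-fold lower in HF plasma, beside 25.3% of the 24387 probes compared. The differences covered a wide range of sizes, and the near copies Hba-a1 and Hba-a2 differed strongly in the size of their fall.

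Red cells are also marked by the enzymes of heme synthesis, by proteins of the membrane and its skeleton, by soluble enzymes and by erythroid transcription factors. The 5 lists of such genes together, globins included, held 37 probes, and 35 without Hba-a1 and Hbb-b1. Of the 30 of these 35 that could be compared in plasma, 21 were at least 2-fold lower in HF and 2 higher. The shares over the 24387 probes compared were 25.3% lower and 32.1% higher. The median log2 difference of the 30 was -2.44, with bounds used as values, beside 0.00 over all probes compared. All 6 probes of heme synthesis were lower, among them both of Alas2, the first enzyme of the erythroid pathway, by at least 347-fold and at least 121-fold. Fech, which inserts iron into the ring, was lower by a log2 difference of at least -6.15. Bnip3l, a protein of mitochondrial removal in reticulocytes, had a signal of 360298 in control plasma and 92.9 in HF plasma, a log2 difference of -9.66, with the HF signal about as near to the negative probes as that of Hbb-b1. Only 17 of the 35 were above background on both arrays, and of these 10 were at least 2-fold lower and 2 higher. The share over all probes above background on both plasma arrays is not given here.

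Some genes of the lists did not go with the globins in plasma. An Add1 probe, for a protein of the membrane skeleton that many cell types also use, was higher in HF plasma by 1.94 on the log2 scale. The other Add1 probe was not above background there. Ldb1, a cofactor of erythroid transcription factors that is likewise widely used, was higher by 4.54, and is named here after its value was seen. Isg20 differed by 0.54 and Bcl11a, which acts in the switch between globin genes, by 0.35.

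**Figure D2:**
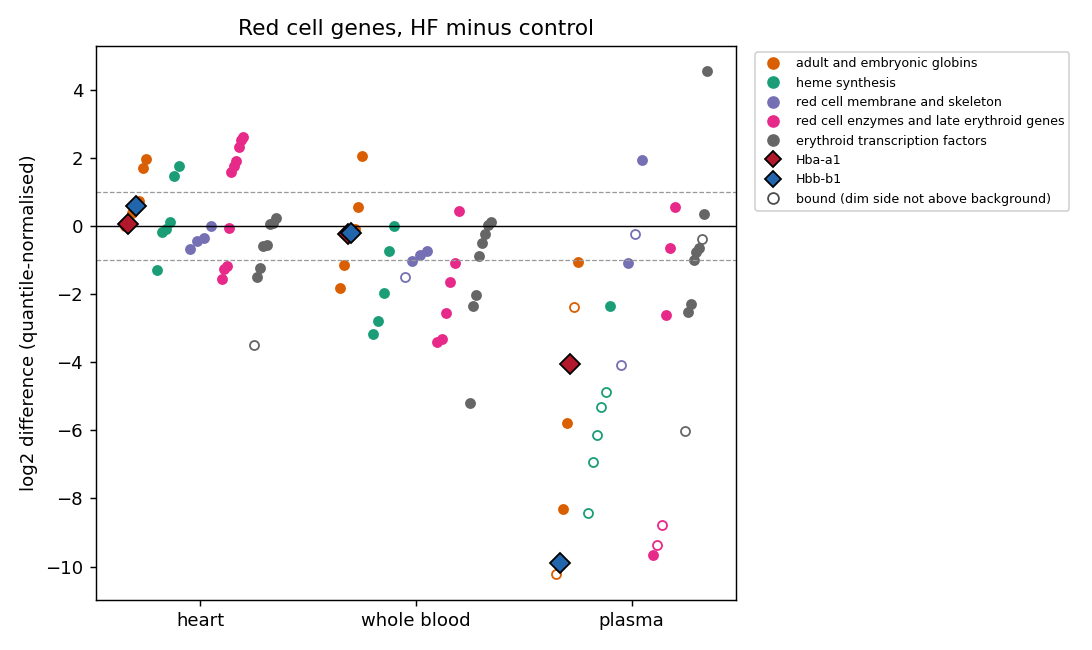
Log2 difference HF minus control of each red cell probe in heart, whole blood and plasma (1 array per group, quantile-normalised), coloured by gene list, with Hba-a1 and Hbb-b1 as diamonds and bounds as open circles. Dashed lines mark 2-fold. The diamonds lie near 0 in heart and whole blood and at -4.05 and -9.88 in plasma.

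Whether red cell genes had lower levels in HF plasma than in HF whole blood could be asked within 1 scan. Such levels are relative to the other probes of an array and do not give an amount of RNA per volume. In the control mice, plasma and whole blood hardly differed on the quantile-normalised scale. The log2 difference, plasma minus whole blood, was -0.05 for Hba-a1 and -0.06 for Hbb-b1, both within the spot error. In the HF mice, plasma was lower than whole blood by a log2 difference of -3.86 for Hba-a1, 14.5-fold, and -9.73 for Hbb-b1, 850-fold. Without normalization these were 20.4-fold and 1072-fold. In the control pair the log2 difference without normalization was -0.54 for Hba-a1 and -0.47 for Hbb-b1, beyond the combined spot error of 0.20. Scaled to the 75th percentile, it was -0.11 and -0.05. The levels of both genes in control blood and filtered plasma were thus nearly equal once scaled, but the deposited signals were lower in plasma. In the HF pair the fall in plasma was far larger in each setting.

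The other red cell genes followed the same course in these pairs. In the control pair 1 of 29 probes was at least 2-fold lower in plasma and 1 higher, beside 5.76% lower and 2.45% higher among 20471 probes compared. They were Hbb-bh1, higher by 1.20, and the Add1 probe that was not above background in HF plasma, at -1.16. In the HF pair 22 of 33 were lower and 4 higher, beside 31.3% lower and 32.4% higher among 23633 probes. Hba-a2 had a signal of 43437 in HF whole blood against 80.0 in HF plasma, a log2 difference of -9.10, and Beta-s of 67724 against 809, a difference of -5.94. Bnip3l differed by -8.58, and Gpx1, a peroxidase abundant in red cells, by -5.98. Higher in HF plasma were a probe of Lmo2, another erythroid cofactor, by 4.13, and Pklr, the red cell and liver pyruvate kinase, by 1.97. The other Add1 probe was higher by 2.93 and Ldb1 by 4.75. Another Lmo2 probe differed by -0.58, and the dimmest Lmo2 probe was above background on neither array.

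Transcripts abundant in blood were also followed as a whole. Of the 1000 probes brightest in control whole blood, a set chosen after the results were seen, 921 could be compared between HF plasma and HF whole blood, and 72.9% were at least 2-fold lower in plasma, with a median log2 difference of -3.91. Among these, 50.5% were lower by as much as Hba-a1 or more, and 0.76% by as much as Hbb-b1 or more. A set chosen for its level in blood leans towards lower values elsewhere, and in HF heart 60.0% of it was lower than in HF whole blood, with a median of -2.04.

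Markers of other blood cells moved in several directions in plasma. The 3 platelet probes were all at least 2-fold lower in HF plasma, beside 25.3% of the 24387 probes compared. Their summed share of all signal was 0.0191% in control and 0.000506% in HF. Gp5, a subunit of a platelet receptor, differed by -7.21. Of 5 neutrophil probes 4 were higher in HF plasma, beside 32.1% of the probes compared. Their summed share was 0.00174% in control and 0.0315% in HF, and S100a9, an abundant protein of neutrophils, differed by 2.16. The part of these markers in the globin result was not tested, and RNA inside cells and free RNA cannot be told apart on these arrays.

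**Figure D3:**
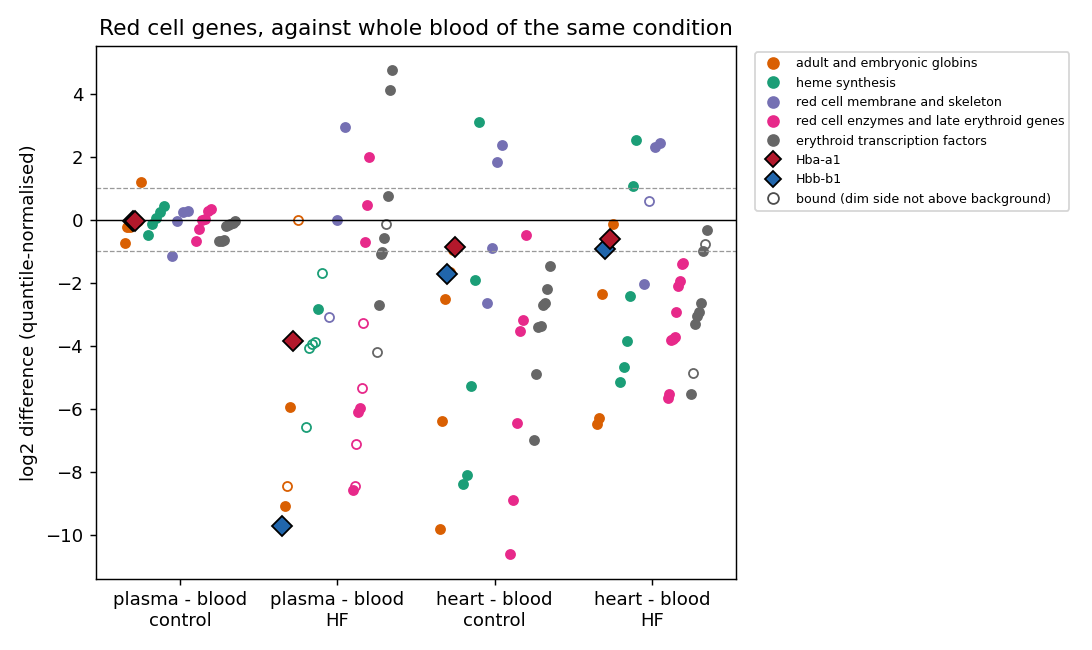
Log2 difference of each red cell probe between plasma or heart and whole blood of the same condition (1 array per group, quantile-normalised), with colours, diamonds and open circles by gene list, gene and bound. Control plasma lies along 0, HF plasma spreads below it, and the hearts lie mostly below their blood.

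In whole blood the globin values depended on the scaling. Hba-a1 differed by -0.23 between HF and control and Hbb-b1 by -0.21, both within 1.96 times the spot error. Scaled to the 75th percentile of each array, the differences were -2.04 and -1.98, and without normalization -2.63 and -2.56, a 6.18-fold and 5.90-fold lower signal in HF. The direction was the same in every setting, and the difference of Hba-a1 ranged from -0.12 to -2.63. The pair runs across scans.

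Many of the other red cell genes were lower in HF whole blood. Of the 29 other red cell probes compared, 15 were at least 2-fold lower and 1 was higher, beside 25.6% lower and 20.6% higher among 20258 probes compared. The median was -1.04, and -1.46 after scaling to the 75th percentile. The Alas2 probes differed by -1.98 and -2.80, with signals of 24461 and 6661 in control and 1837 and 400 in HF. Hbq1b had 101908 and 5276, a difference of -1.82, and Bnip3l 422407 and 34034, a difference of -1.08. Urod, a later enzyme of heme synthesis, differed by -3.17, and Gata1, the leading erythroid transcription factor, by -2.02. The probe that was higher was Gm5736, at 2.04. Fewer red cells and less RNA per red cell cannot be told apart in such bulk samples.

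Other cell types differed between the whole blood mixtures as well. All 5 neutrophil probes were higher in HF whole blood, beside 20.6% of the 20258 probes compared. Their summed share was 0.00135% in control and 0.0639% in HF. Camp, an antimicrobial peptide of neutrophil granules, differed by 4.39. Of the 22 cardiomyocyte probes 18 were higher in HF whole blood, where 21 were well above background, and their summed share was 0.278%, against 0.0504% in control whole blood. Fabp3, the fatty acid binding protein of heart muscle, was at least 281-fold higher. A Myh6 probe stood apart from this list, being brighter in whole blood than in heart in both conditions. Neither shift was tested as to its part in the globin values.

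In the heart, the hemoglobin genes differed little between HF and control. The log2 difference was 0.04 for Hba-a1, with a range of fold from 0.780 to 1.36 from the spot errors, and 0.58 for Hbb-b1, from 1.13 to 1.97. Scaling to the 75th percentile gave 0.41 and 0.88, and no normalization gave -0.51 and -0.04, so the sign of neither difference was the same in every setting. Over all probes compared, the median without normalization was -0.72. Both heart arrays were in 1 scan. At least 2-fold higher in HF heart were 12.6% of 29083 probes and 10.3% were lower, and neither hemoglobin probe was among them.

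Hba-a2 had a signal of 25949 in control heart and 30654 in HF heart, a log2 difference of 0.74, and Beta-s 91323 and 65559, a difference of -0.02. Of the 3 dim members of the family, Hbq1b had 134 and 292, a difference of 1.71, Gm5736 had 50.7 and 119, a difference of 1.95, and Hbb-bh1 had 67.7 and 44.1, a difference of 0.37. With the normexp background correction Hbq1b differed by 0.89 and Gm5736 by 0.71, so that neither reached 2-fold, and without normalization Hbb-bh1 differed by -0.62. On the quantile-normalised scale the 4 adult globin probes thus differed by less than 2-fold. Scaled to the 75th percentile, Hba-a2 differed by 1.15, over 2-fold, and the other adult probes by less than 2-fold.

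Several genes of late red cell maturation were higher in HF heart. Of the 10 probes of red cell enzymes and late erythroid genes, 6 were at least 2-fold higher and 3 lower, with a median of 1.67. The shares over the 29083 probes compared were 12.6% and 10.3%. Bpgm, which makes the phosphate that loosens oxygen from hemoglobin, had a signal of 428 in control heart and 1931 in HF heart, a difference of 2.61. Gpx1 had 7532 and 18934, a difference of 1.90, Bnip3l 5164 and 10047, a difference of 1.57, and Fam46c, a late erythroid gene now named Tent5c, 43.2 and 136, a difference of 2.31. The Alas2 probes had 135 and 244, and 31.1 and 57.7, with differences of 1.46 and 1.75, and of 0.82 and 0.47 with normexp, under which Fam46c was at 0.86. Lower in HF heart were Pklr, with a difference of -1.56, Isg20, with -1.18, and catalase (Cat), with -1.26, which is named after its value was seen.

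Over the 35 red cell probes other than Hba-a1 and Hbb-b1, 10 were higher in HF heart and 7 lower, with a median of 0.00. Among all 29083 probes compared, 12.6% were higher and 10.3% lower. With the normexp background correction 3 of the 35 were higher and 4 lower, so the counts in heart rest in part on dim probes. That correction adds an offset to the signals, which makes the differences of any dim probe smaller. The share over all probes under normexp is not given here, so the drop in the counts is not shown to be particular to red cell genes. Lower in HF heart were also Alad, an early enzyme of heme synthesis, by -1.28, and Gata1, by at least 11.4-fold. Neutrophil probes were higher in HF heart, 5 of 5, with a summed share of 0.00114% in control and 0.0116% in HF, and 2 of the 3 platelet probes were lower. The part of blood left in the vessels in these values was not tested.

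Heart was also set beside whole blood of the same condition. In HF, where both arrays were in 1 scan, the signals of the hemoglobin probes in heart were close to those in blood. The ratio of heart to whole blood on the deposited signals was 0.954 for Hba-a1 and 0.831 for Hbb-b1, and after quantile normalization the log2 differences were -0.61 and -0.93. In control, across scans, the ratios were 0.219 and 0.144 and the differences -0.88 and -1.72. Scaling to the 75th percentile gave -3.28 and -3.88 in control and -0.83 and -1.03 in HF. Hemoglobin signal in heart was thus lower in value than that of blood in each setting, by an amount that the scaling and, in control, the scan cannot be separated from. In HF without normalization, the log2 differences of -0.067 and -0.27 were within 1.96 times the combined spot error of 0.20.

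Most of the other red cell probes were below blood in the heart. In HF, 25 of 34 in a set that includes Hba-a2 and Beta-s were at least 2-fold lower in heart than in whole blood and 4 higher, beside 34.4% lower and 34.2% higher among 25594 probes compared, and the median of the 34 was -2.54. Beta-s differed by -0.89, Hba-a2 by -2.35, Hbq1b by -6.29, the Alas2 probes by -4.68 and -3.85, and Bnip3l by -3.80. In control 22 of 30 were lower and 3 higher, beside 29.2% lower and 21.2% higher among 29443 probes. Hba-a2 differed there by -2.52, Hbq1b by -9.81, the Alas2 probes by -8.11 and -8.41, and Bnip3l by -6.45. Higher in heart than in blood in both conditions were Alad, Gypc and Aqp1, a water channel of red cells and of endothelium, at 1.83 in control and 2.31 in HF.

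Genes of iron handling gave few values. Of 3 probes on this list, Ftl1, the light chain of ferritin, had a log2 difference of 0.98 between HF and control heart and of -7.00 between HF plasma and HF whole blood, and was an outlier spot on both control blood arrays. Slc11a2, an iron transporter, was at least 2.91-fold lower in HF plasma than in control plasma. Hmox2, which breaks down heme, was above background in both hearts and in control plasma and on no other array. Myoglobin (Mb), the globin of muscle, was read by 2 probes. The brighter had a signal of 13374 in control heart and 2893 in HF heart, a log2 difference of -1.75, and the dimmer 316 and 404, a difference of 0.96, so the probes did not give 1 direction.

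**Figure D4:**
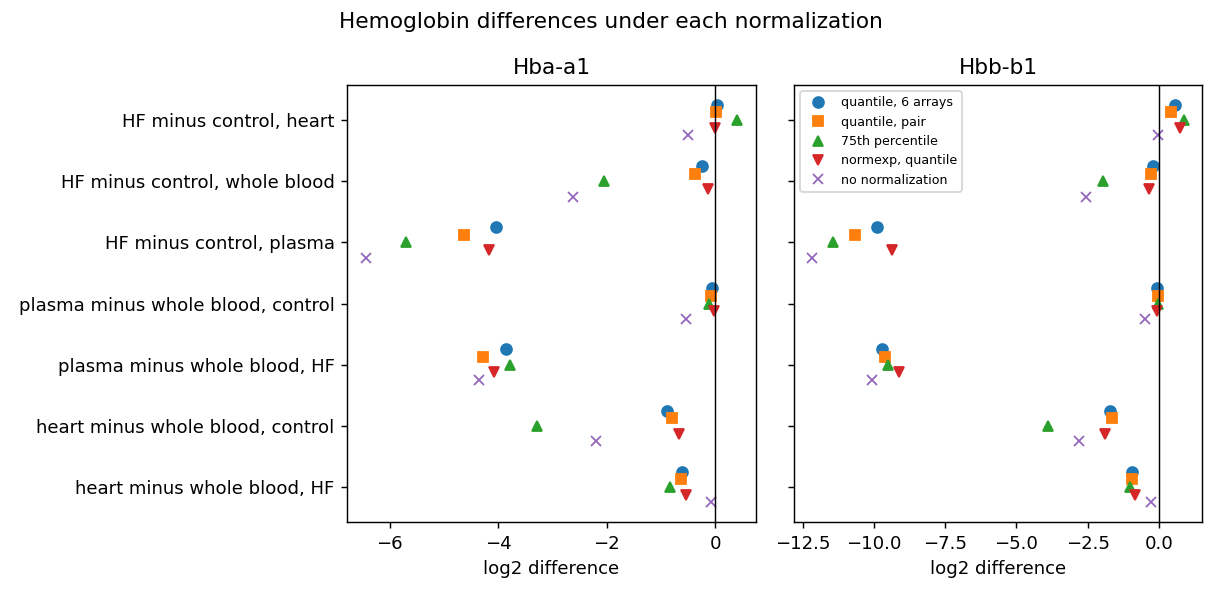
Log2 difference of Hba-a1 (left) and Hbb-b1 (right) for each pair of arrays under 5 ways of scaling, with 1 point per setting and separate horizontal axes. The plasma differences in HF stay far below 0 in each setting. HF minus control in whole blood lies between -0.12 and -2.63 for Hba-a1, and in heart on either side of 0. Heart minus whole blood lies below 0 in each setting.

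The genes with a pattern across arrays most like that of the hemoglobin genes were sought among 4066 named probes, by Pearson's r of the quantile-normalised log2 level over the 6 arrays, given as a description. Hba-a1 and Hbb-b1 correlated with each other at 0.996. The first 5 for Hba-a1 were Cox6a1, a subunit of cytochrome oxidase, B2m, the light chain of class I antigens, Beta-s, Jund, a transcription factor, and Hbb-b1. Those for Hbb-b1 were Beta-s, Hba-a1, Gm6813, Cox6a1 and Tpt1, a widely expressed protein. All r were above 0.99, and 61 and 60 probes had an r of at least 0.95 with Hba-a1 and Hbb-b1. The single array of HF plasma largely sets these values, since without it the level of Hba-a1 spanned 0.88 and that of Hbb-b1 1.72 on the log2 scale. After scaling to the 75th percentile, none of the first 5 for Hba-a1 and 2 of those for Hbb-b1 were again among the first 5.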

How the data were processed

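The authors hybridised fluorescent cRNA, made with random primers after removal of rRNA, to 1 single-colour array for each of 6 groups, and read the images with Agilent Feature Extraction 11.0.1.1. The deposited intensity is the processed signal of each spot, with the background subtracted and no normalization between arrays, and the deposited table of the series held the same values, with 0 that differ. Gene names came from the mRNA list of the study, of which 4093 probes were held here, and 3977 matched a gene in RefSeq (GRCm38.p6). The file headers name mm9 as the build of the array, and no coordinate of that build is given.

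After removal of control spots and averaging of repeated spots on the log2 scale, 59729 probes underwent quantile normalization across the 6 arrays. The methods of the study name quantile normalization but not the arrays it ran over. A probe counted as detected if its spot was well above background and no outlier. Probes entered a comparison if detected on at least 1 of its arrays and an outlier on neither. A probe not well above background on an array was set there to the higher of its own level and the lowest level among probes well above background, which makes the difference a bound. The threshold was 2-fold, as in the methods, which required, for lncRNAs, detection on both arrays of a pair. Errors are those that the scanner software gives for a spot, and ranges are 1.96 times the combined error (95%). They cover the error within an array only. With 1 array per group, no test was made.

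Alternatives were no normalization, scaling to the 75th percentile, quantile normalization of a pair alone, normexp background correction with an offset of 50, thresholds of 1.5 and 4, detection on both arrays, no detection filter, and Spearman's rho in place of Pearson's r. Outlier spots kept in place of left out was added after seeing the data. Hba-a1, Hbb-b1, the 13 gene lists and the alternatives were chosen with earlier results of these data known. Named were all globin probes, up to 6 probes by mean level in each other red cell list and the iron list, 2 in each list of another cell type, and the first 5 by pattern. Steps were tested on simulated arrays. Python 3.11.15, numpy 2.4.6, pandas 2.3.3, R 4.3.3 and limma 3.58.1 were used.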

Additional observations from a re-analysis of the deposited data

Results flagged for a closer look

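Several red cell probes went in opposite directions between HF and control in different tissues, by at least 2-fold in both of the opposed tissues and above background on both arrays. With 1 array for each condition the difference between tissues was not tested. The values are log2 differences, HF minus control. Gm5736 (Hbb-bh2) gave 1.95 in heart, 2.04 in whole blood and -1.07 in plasma. Hbq1b gave 1.71 in heart and -1.82 in whole blood. The Alas2 probes gave 1.46 and 1.75 in heart and -1.98 and -2.80 in whole blood. Bnip3l gave 1.57 in heart, -1.08 in whole blood and -9.66 in plasma. An Add1 probe gave -0.45 in heart, -1.04 in whole blood and 1.94 in plasma. The heart arrays were in 1 scan, and the whole blood and plasma pairs each ran across scans. Many of these calls depended on the processing. In heart, normexp gave 0.71 for Gm5736, 0.89 for Hbq1b and 0.82 and 0.47 for the Alas2 probes, and no normalization gave 0.85 and 0.89 for the Alas2 probes and 0.96 for Bnip3l, all below 2-fold. In whole blood, Gm5736 fell below 2-fold without normalization, at 0.49, and the Add1 probe with normexp, at -0.63. The HF plasma signal of Bnip3l was close to the negative probes. On the quantile-normalised scale, Hba-a1 and Hbb-b1 did not differ by 2-fold in heart or whole blood. In whole blood they differed by -2.04 and -1.98 after scaling to the 75th percentile, and by -2.63 and -2.56 without normalization.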

How the results depend on the processing

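No paired analysis was possible because each group had 1 array. Of the differences of Hba-a1 and Hbb-b1, the falls in HF plasma kept their direction and were over 2-fold under every alternative. For Hba-a1, 75th percentile scaling gave -2.04 for HF minus control in whole blood, -5.70 in plasma and -3.28 for heart minus whole blood in control. For Hbb-b1 the same gave -1.98, -11.42 and -3.88. Without normalization, Hba-a1 differed between HF and control by -0.51 in heart, -2.63 in whole blood and -6.44 in plasma, between plasma and whole blood by -0.54 in control and -4.35 in HF, and between heart and whole blood by -2.19 in control and -0.067 in HF. The values of Hbb-b1 were -0.036, -2.56, -12.16, -0.47, a difference in HF plasma within the error of the main value, -2.79 and -0.27. Quantile normalization within the pair gave -4.62 for Hba-a1 and -10.65 for Hbb-b1 in HF minus control plasma, and -4.27 for Hba-a1 in HF plasma minus whole blood. Normexp gave Hbb-b1 -9.38 and -9.13 in these comparisons.

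Counts of the 35 other red cell probes moved as follows. In heart (10 higher, 7 lower), normexp gave 3 and 4, a 4-fold threshold 3 and 1, and no normalization 12 lower. In whole blood (1 higher, 15 lower), no normalization gave 0 and 26, no detection filter 2 higher, and a 4-fold threshold 8 lower. In plasma (2 higher, 21 lower), a 4-fold threshold gave 1 higher and detection on both arrays 10 lower of 17. For control plasma minus whole blood (1 and 1), no normalization gave 0 and 6, normexp and a 4-fold threshold 0 and 0, and a 1.5-fold threshold 6 lower. For HF plasma minus whole blood (22 lower), detection on both arrays gave 10 lower of 19. Keeping outlier spots changed none of these counts by over 1.5 times. Without normalization the median over all probes compared was itself -0.72 in heart, -0.60 in whole blood and -0.27 for control plasma minus whole blood. The counts of this paragraph are given without the share over all probes under the same alternative.

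Among other named probes, without normalization Isg20 turned to 0.26 and Cd3e to 0.66 for heart minus whole blood in HF, and Dcn to 0.76 there and -0.22 for HF minus control whole blood, while 75th percentile scaling gave Dcn 0.0002 for heart minus whole blood in HF. The cause was not tested. By Spearman's rho 25 probes tied at the highest value, so that no first 5 could be named. In control whole blood 29408 probes and in HF plasma 24746 held 1 lowest value, so dim probes have no order there.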
